A study of Mus musculus with 4 samples.

Results

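Among the kidney cells of mice with anti-GBM nephritis, 1804 proximal tubule cells carried raised transcripts of Angptl4, Osgin1, Adamts1 and Cyr61. They were found by a rule on raw UMI counts (UMIs are molecular tags that count each captured transcript 1 time). A cell was taken when it had 200 or more genes, when Slc34a1, Miox and Kap together made up 1% or more of its UMIs, and when the 4 stress genes together made up 0.1% or more. Of the 16003 cells deposited, 15777 had 200 or more genes and 6746 of these passed the proximal tubule step. The 1804 cells above the stress threshold are called stress gate cells here, and the remaining 4942 are called other proximal tubule cells. The rule used the measured values of these cells, so every difference between the stress gate cells and the other proximal tubule cells is a description and was given no test.

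The study asked how panobinostat, givinostat and ruxolitinib act in a mouse model of crescentic glomerulonephritis, in which a serum raised against the glomerular basement membrane (anti-GBM) injures the glomerulus. All 4 groups were male C57Bl/6 mice aged 9 weeks of the genotype Pax2.rtTA;TetO.Cre;R26.Confetti, in which a Pax2 driver can switch on a multicolour reporter in cells of the nephron, and all received the serum. From day 1 the controls were given distilled water as vehicle, and the other groups 15 mg/kg of panobinostat, 10 mg/kg of givinostat or 60 mg/kg of ruxolitinib. All were sacrificed on day 7. Panobinostat and givinostat inhibit histone deacetylases and ruxolitinib inhibits the Janus kinases JAK1 and JAK2. Each group had 2 animals and gave 1 droplet library of total kidney cells, and the labels do not say whether the library pools the animals. There was no group without the serum, so nothing here separates the disease from the healthy kidney. With 1 library per group there was no replicate check: intervals are 95% intervals that cover counting error only, and any difference is between libraries. All drug ratios share the vehicle library, which was matched to its library by elimination: the other 3 library names carry a drug, and no label uses the name of the fourth.

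The proximal tubule reabsorbs most of the filtered salt, glucose, amino acids and phosphate, and it burns fatty acids to do so. Its cells react to injury, fluid shear, loss of contact and enzymatic dissociation with a rapid transcriptional programme. In that programme signal-activated factors switch on immediate early genes such as Fos, Jun and Atf3 within minutes, and these drive secreted and feedback genes. Of the genes that named these cells, Cyr61 (now also Ccn1) encodes a matrix protein that is a known target of the YAP and TEAD transcription factors. Angptl4 encodes a secreted inhibitor of lipoprotein lipase and Pdk4 a mitochondrial kinase that inhibits pyruvate dehydrogenase. Both are induced by fatty acids through PPAR factors and by glucocorticoids. Osgin1 is an oxidative stress gene, Adamts1 a secreted protease that cleaves proteoglycans, and Cxcl1 a chemokine that attracts neutrophils.

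The upstream sequences of the marker genes are shown because motifs of those pathways were searched in them. RefSeq held an entry for 5 of the 6 marker genes in build GRCm38.p6, and Angptl4 had none. Each sequence holds the 250 bases before the annotated start, 5′ to 3′ on the strand of the gene, and capitals mark motif matches on either strand.

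Cyr61: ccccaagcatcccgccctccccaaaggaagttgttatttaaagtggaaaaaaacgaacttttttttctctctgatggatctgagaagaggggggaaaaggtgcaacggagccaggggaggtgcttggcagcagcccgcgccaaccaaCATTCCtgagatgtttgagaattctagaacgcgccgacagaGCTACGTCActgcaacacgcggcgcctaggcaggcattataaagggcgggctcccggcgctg
Cxcl1: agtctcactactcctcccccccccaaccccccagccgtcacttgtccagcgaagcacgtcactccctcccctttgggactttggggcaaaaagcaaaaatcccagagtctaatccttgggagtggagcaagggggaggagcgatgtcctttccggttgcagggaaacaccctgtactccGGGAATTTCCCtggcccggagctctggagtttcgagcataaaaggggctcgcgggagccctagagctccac
Osgin1: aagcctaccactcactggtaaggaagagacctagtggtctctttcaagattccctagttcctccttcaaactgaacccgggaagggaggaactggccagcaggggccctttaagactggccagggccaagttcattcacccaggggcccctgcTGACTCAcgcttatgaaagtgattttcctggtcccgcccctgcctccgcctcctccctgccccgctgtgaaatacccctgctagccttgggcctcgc
Pdk4: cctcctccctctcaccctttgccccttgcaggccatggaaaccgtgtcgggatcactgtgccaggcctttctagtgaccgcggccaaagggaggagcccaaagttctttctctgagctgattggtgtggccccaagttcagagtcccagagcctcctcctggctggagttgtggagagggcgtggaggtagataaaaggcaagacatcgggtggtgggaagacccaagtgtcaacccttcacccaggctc
Adamts1: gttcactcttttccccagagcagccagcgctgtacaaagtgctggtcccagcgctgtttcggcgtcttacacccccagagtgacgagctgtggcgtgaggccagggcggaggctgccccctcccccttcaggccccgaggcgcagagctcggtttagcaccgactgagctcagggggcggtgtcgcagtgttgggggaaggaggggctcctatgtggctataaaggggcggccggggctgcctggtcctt

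The windows lie at chr3:145649986-145650235 (minus strand) for Cyr61, chr5:90890995-90891244 (plus) for Cxcl1, chr8:119436897-119437146 (plus) for Osgin1, chr6:5496279-5496528 (minus) for Pdk4 and chr16:85803114-85803363 (minus) for Adamts1. Cyr61 held 1 match to the TEAD letters GGAATG, which 12.64% of 32851 mouse promoter windows held. It also held 1 match to the antioxidant response letters TGACNNNGC, present in 10.16% of windows. Cxcl1 held 2 overlapping matches to the NF-kappaB motif (7.251% of windows), and Osgin1 held 1 match to the AP-1 letters TGANTCA (6.749%). Neither Pdk4 nor Adamts1 held a match to these motifs, and no window held the cyclic AMP response letters TGACGTCA (1.546%), the CArG motif of serum response factor (1.467%) or the PPAR direct repeat (0.09132%). These are matches of letters only, and binding was not measured.

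The stress gate held 548 of 1732 proximal tubule cells in the vehicle library, 577 of 2405 with panobinostat, 295 of 1171 with givinostat and 384 of 1438 with ruxolitinib. The shares were 31.6% (29.5 to 33.9), 24.0% (22.3 to 25.8), 25.2% (22.7 to 27.8) and 26.7% (24.4 to 29.1), with exact Clopper-Pearson intervals. The vehicle library thus had the highest share, and the interval of no drug library reached it. Relative to vehicle the share was 0.758 (0.687 to 0.837) with panobinostat, 0.796 (0.706 to 0.898) with givinostat and 0.844 (0.756 to 0.942) with ruxolitinib. Over all kept cells the order was different, and stress gate cells were 13.9%, 13.1%, 8.50% and 9.65% of cells in the same sequence. Proximal tubule cells made up 44.1%, 54.7%, 33.7% and 36.1% of the kept cells. Fewer cells of the kind and less RNA of the stress genes per cell cannot be told apart by a share above a threshold.

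The depth of the cells differed between the kinds of cell and between libraries. Stress gate cells had median totals of 15936.5, 13103, 21176 and 17649.5 UMIs (vehicle, panobinostat, givinostat, ruxolitinib) against 8283.5, 6755.5, 11383.5 and 9353 in the other proximal tubule cells. Their mitochondrial share was lower, at medians of 12.7% to 15.0% against 19.95% to 21.7%. When each cell was thinned to 4000 UMIs the shares were 33.2%, 27.6%, 27.4% and 28.7%, after 234, 823, 0 and 117 shallower kept cells were left out. Among cells of 1 to 2 times the median of their own library's proximal tubule cells the ratios to vehicle were 0.726, 0.754 and 0.823. Among cells of 10000 to 20000 UMIs the panobinostat ratio was 1.00 (0.884 to 1.14), with shares of 41.4% against 41.2%, so the lower share with panobinostat did not hold in that window. In the same window the ratio was 0.526 with givinostat and 0.744 with ruxolitinib. The part of depth in the differences between libraries was not tested further.

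**Figure D1:**
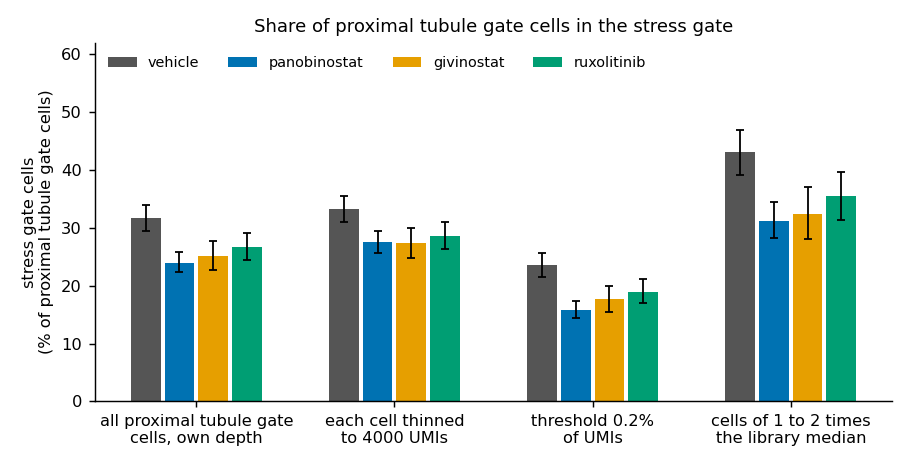
Bars give the percentage of proximal tubule gate cells that were in the stress gate, per library, at the rule's threshold, after thinning each cell to 4000 UMIs, at a threshold of 0.2% and among cells of 1 to 2 times the library median; error bars are exact 95% intervals of counting error. Vehicle is highest in all 4 settings shown (31.6%, 33.2%, 23.5% and 43.1%); cells of 10000 to 20000 UMIs, where panobinostat and vehicle were level at 41.4% and 41.2%, are not shown.

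The threshold fell inside a continuous distribution. The lowest summed share of the 4 stress genes inside the gate was 0.1005%, 0.1018%, 0.1002% and 0.1025% (vehicle, panobinostat, givinostat, ruxolitinib), and the highest outside it was 0.0976%, 0.0999%, 0.0993% and 0.0998%. Between 0.1% and 0.15% lay 81, 103, 51 and 69 stress gate cells, and between 0.05% and 0.1% lay 111, 144, 101 and 110 of the other cells. The median stress gate cell carried 0.311%, 0.259%, 0.318% and 0.299%, and the highest single cells reached 1.59%, 1.23%, 1.46% and 1.92%. Cells at 0.5% or more made up 27.2% of the stress gate cells in the vehicle library and 13.7% with panobinostat, against 29.2% with givinostat and 20.3% with ruxolitinib. The panobinostat stress gate cells therefore sat lower in the distribution, and they were also the shallowest. In the other proximal tubule cells 37.8%, 50.5%, 25.2% and 36.6% had no UMI of the 4 genes at all.

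Cyr61 gave the largest part of the gate's UMIs in each library, at 42.2%, 46.6%, 44.0% and 47.0%, and it was the leading gene of the sum in 61.5%, 62.4%, 55.9% and 63.3% of the cells. Angptl4 gave the smallest part, at 13.2%, 10.1%, 11.3% and 8.32%. All 4 genes were detected in 80.1%, 55.6%, 75.9% and 64.3% of the stress gate cells, and 1 alone in 1.09%, 2.43%, 0.339% and 2.08%. The cells were selected on the sum of these genes, so these shares are a description only. The median sum was 56, 34, 71 and 49.5 UMIs, lowest with panobinostat, where joint detection was also lowest. When any 1 of the genes was left out of the sum, that gene was 4.94-fold to 12.5-fold higher inside the gate made from the other 3. Osgin1, for example, was 12.0, 7.52, 12.5 and 7.41 times higher in gates that did not use it. Rank correlations among the 6 marker genes were taken in all proximal tubule cells thinned to 4000 UMIs, which share library and depth. The strongest of the 15 was that of Pdk4 with Cyr61 (Spearman's rho 0.610 to 0.679 over the 4 libraries). The weakest was that of Angptl4 with Cxcl1 (0.129 to 0.204). Pdk4 and Cxcl1 were not part of the rule but were named as markers of the same cells. All 6 genes were chosen with earlier results of these data known, so these folds and correlations are a description only.

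Of 19 cell barcodes that occurred in more than 1 library, 3 belonged to stress gate cells. Scrublet called 0.0254% to 2.30% of the cells of a library as doublets, too few for the call to be used. The 5% of cells with the highest scores were left out as an alternative instead. Summed markers of most other cell types were lower in the stress gate cells than in the other proximal tubule cells. Levels are given as CPM, the UMIs of a gene over all UMIs summed over the cells of a kind in a library, scaled to a total of 1000000. The summed level of 20 leukocyte markers was 691 to 833 CPM against 1151 to 1832 CPM in the other proximal tubule cells, and that of 13 endothelial markers 25.1 to 37.9 against 35.8 to 107 CPM. Loop of Henle markers summed to 238 to 437 against 283 to 640 CPM, and principal cell markers to 44.8 to 91.1 against 58.3 to 116 CPM. Distal convoluted tubule markers were close, at 137 to 171 against 162 to 188 CPM, and with panobinostat higher in stress gate cells (171 against 162 CPM). Fibroblast or mural markers summed to 1.13 to 2.25 CPM and podocyte markers to 18.6 to 37.8 CPM in stress gate cells. Of these 2 lists only Pdgfra and Wt1 were at 0 in the stress gate cells of all 4 libraries. Haemoglobin and other erythroid transcripts summed to 75.8 CPM in the vehicle stress gate cells, to 906 with panobinostat, 2130 with givinostat and 165 with ruxolitinib. Their part in the other results was not tested.

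The 6 marker genes were far higher in stress gate cells, which for the 4 gate genes follows from the rule. The intervals of levels are exact Poisson intervals. Cyr61 stood at 1639 CPM with vehicle (1613 to 1665), 1434 with panobinostat (1408 to 1461), 1734 with givinostat (1703 to 1766) and 1694 with ruxolitinib (1664 to 1724), against 44.1 to 55.2 CPM in the other proximal tubule cells. Osgin1 stood at 912, 788, 1019 and 779 CPM against 43.7 to 60.4, and Adamts1 at 821, 546, 742 and 832 CPM against 34.3 to 57.5. Angptl4, at 511, 310, 443 and 300 CPM against 38.3 to 73.8, had the smallest fold of the 4 gate genes in each library, 5.87 to 8.09.

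Pdk4 and Cxcl1, which the rule did not use but which were named as markers of the same cells, were also higher in the gate. Pdk4 stood at 735 CPM with vehicle (718 to 753), 584 with panobinostat (568 to 602), 781 with givinostat (760 to 803) and 575 with ruxolitinib (557 to 593), against 24.97, 27.6, 33.6 and 28.4 CPM, a fold of 20.3 to 29.4. Cxcl1 stood at 140, 105, 187 and 203 CPM against 6.33, 7.58, 12.9 and 18.9 CPM, a fold of 10.7 to 22.2. The ranges of the stress gate cells and of the other cells over the 4 libraries did not overlap for any of the 6 genes. For the 4 gate genes this follows from the rule, and the share of all genes without overlap was not counted. It is not particular to the markers, since the ranges of Hnf4a, given below, did not overlap either. Of 1561 genes with 100 CPM or more, 6.53% were at least 2-fold higher in stress gate cells in all 4 libraries. A UMI of Pdk4 was found in 86.9%, 79.2%, 85.4% and 76.8% of stress gate cells and in 12.6%, 9.68%, 17.9% and 9.39% of the other proximal tubule cells. In T cells of the same libraries, which should lack the gene and have median totals of 4304.5 to 7603.5 UMIs, the share was 1.43% to 3.34%. At 4000 UMIs per cell Pdk4 was found in 59.4% to 72.5% of stress gate cells, 4.76% to 7.65% of other proximal tubule cells and 0.606% to 3.24% of T cells. Cxcl1 was the least widespread marker, found in 36.7%, 26.3%, 38.0% and 39.3% of stress gate cells against 0.397% to 1.72% of T cells, and its 5 richest cells held 14.8%, 25.03%, 31.5% and 23.3% of its UMIs.

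**Figure D2:**
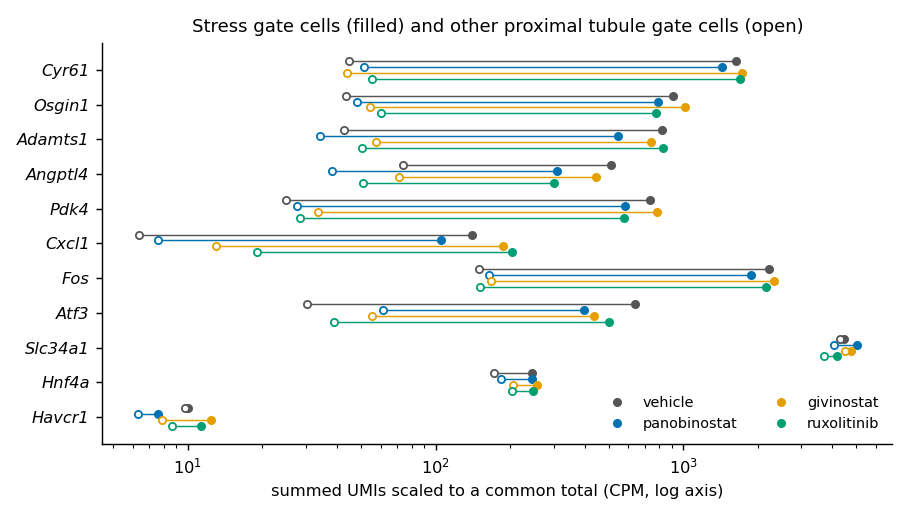
Each line joins the level of a gene in other proximal tubule cells (open) to that in stress gate cells (filled) of 1 library, in CPM on a log axis. The 6 marker genes, Fos and Atf3 are separated by 5.87-fold or more in every library, while Slc34a1, Hnf4a and Havcr1 lie close together.

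Proximal tubule genes were at similar levels in both kinds of cell, which for Slc34a1, Miox and Kap is shaped by the rule. Slc34a1, the sodium phosphate carrier, was at 4186 to 5007 CPM in stress gate cells and 3690 to 4506 in the other cells. Lrp2, the megalin receptor that takes up filtered protein, was at 1299 to 1595 against 1135 to 1481 CPM, and Hnf4a, a transcription factor of proximal identity, at 245 to 256 against 172 to 206 CPM. Of 36 proximal tubule transport and identity genes with 20 CPM or more, 2 were higher by 1.5-fold and 1 was lower by the median over the 4 libraries. Over all 5930 genes with 20 CPM or more, 13.8% were higher and 1.57% were lower by that measure. The list's median log2 ratio was 0.11, beside 0.08 over all genes. Without the 3 genes of the rule 2 of 33 were higher and 1 was lower, with a median of 0.12. TMM and DESeq2 scaling lowered all these log2 ratios by 0.06 to 0.16, depending on the library, so a median this close to 0 has no firm direction. Genes of the early S1 and S2 segments had a median of -0.19 (11 tested, 0 higher, 2 lower), but the libraries went opposite ways, at -0.43 with vehicle, 0.27 with panobinostat, -0.21 with givinostat and -0.05 with ruxolitinib. Those of the late S3 segment had a median of -0.18 (13 tested, 1 higher, 2 lower).

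In all 4 libraries 102 of 1561 genes with 100 CPM or more were at least 2-fold higher in stress gate cells (6.53%). The 6 marker genes were among the 102, and for the 4 gate genes this follows from the rule. Only 1 gene, the leukocyte gene Lyz2, was lower (0.0641%). Ratios on the log2 scale are given with 5 CPM added to each level, which understates low genes. Apart from the gate genes, the highest median ratios belonged to Pdk4 (4.26), Fos (3.77), Fosb (3.40), Klf6 (3.36) and Cxcl1 (3.27), followed by Atf3 (3.20) and Dusp1 (3.19). Next came Chka, choline kinase (3.18), Gdf15, a stress cytokine (3.13), Rhob, a small GTPase (3.0025), Hbegf, a ligand of the EGF receptor (2.97), Klf4 (2.94), Txnip, which binds thioredoxin (2.92), Jun (2.85) and Btg2, an antiproliferative factor (2.79). Below 0, leaving out Lyz2 (-1.72) as a marker of leukocytes, the lowest were Tmsb4x (-1.24) and Apoe (-1.01), both abundant in leukocytes, then Klk1 (-0.94), H2-Eb1 (-0.91), which turned to 0.12 when cells with other cells' markers were left out, and Spp2 (-0.81). Gatm, the creatine synthesis enzyme of the early proximal tubule, followed at -0.72, with Ndufc1 (-0.67), AI314278 (-0.66), Atp5o-1 (-0.64) and Lgals1 (-0.63).

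Immediate early genes were among the genes with the highest ratios, beside genes outside that list such as Pdk4, Chka and Txnip. Of the 26 AP-1 and immediate early genes with 20 CPM or more (32 were listed), 25 were higher by 1.5-fold or more and 1, Nr4a1, was lower, with a median log2 ratio of 2.12. This count and those of the lists that follow stand beside 13.8% of all genes higher, 1.57% lower and a median of 0.08, and nothing is read from them, since the contrast is that of the rule. Jun, an AP-1 subunit, was at 4249, 4318, 4164 and 4124 CPM in stress gate cells against 464, 585, 581 and 616 CPM. Fos, its partner, was at 2223, 1870, 2314 and 2162 CPM against 150, 164, 167 and 151 CPM. Dusp1, a phosphatase that shuts MAP kinases off, was at 1371, 1100, 1552 and 1346 CPM against 111, 121, 158 and 168 CPM. Atf3, a stress-induced repressor, varied more between libraries, at 636, 397, 437 and 501 CPM against 30.2, 61.6, 55.3 and 39.0 CPM, so that its fold ran from 6.44 with panobinostat to 21.1 with vehicle.

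Other lists of stress pathways had medians above that of all genes. Of 6 YAP and TEAD targets tested, 5 were higher (median 1.52), among them Cyr61 itself, Amotl2 (132 to 169 CPM against 15.2 to 23.1), which restrains YAP, and F3, tissue factor (96.4 to 129 against 22.1 to 31.2). Without Cyr61, which the rule fixed, 4 of 5 were higher (median 1.31). Only 6 of the 17 listed genes in the matrix reached 20 CPM, and Ctgf, the other classical target, was at 3.76 to 9.00 CPM. Of 13 glucocorticoid and steroid response genes 12 were higher (median 1.25), or 11 of 12 without Angptl4 (median 1.21), with Sgk1, a kinase that stimulates sodium transport, at 264 to 678 against 47.9 to 90.0 CPM. Fkbp5, a sensitive glucocorticoid target, had a median of -0.01. Of 12 integrated stress and unfolded protein genes 8 were higher (median 1.30). They included Hspa5, the main chaperone of the endoplasmic reticulum, at 825 to 1535 against 295 to 563 CPM, and Ppp1r15a at 90.8 to 124 against 17.9 to 35.7 CPM. Of 12 cytosolic heat shock genes 9 were higher and 1, Cryab, was lower (median 1.16), while the mitochondrial chaperones Hspd1 and Hspe1 had medians of -0.06 and -0.09.

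Growth factor and inflammatory genes were higher in part. Of 5 growth factor ligands and EGF receptor feedback genes tested, 3 were higher (median 1.17): Hbegf at 160 to 299 against 26.4 to 32.6 CPM, Gdf15 at 183 to 267 against 19.4 to 22.9 CPM and Errfi1, a feedback inhibitor of the EGF receptor, at 600 to 851 against 273 to 428 CPM. Of 10 NF-kappaB and inflammatory mediators 5 were higher and 1 was lower (median 0.69), with Nfkbiz at 217 to 279 against 31.9 to 50.8 CPM. Cxcl2 and Il1b, which myeloid cells make, were at or under 14.3 CPM in stress gate cells and higher in the other proximal tubule cells, where leukocyte markers were also higher. Of 10 p53 and growth arrest genes 6 were higher (median 0.78), led by Gadd45g at 314 to 580 against 48.5 to 105 CPM, while Cdkn1a, the p21 arrest gene, was at 12.3 to 16.9 CPM.

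The lipid and redox lists each supplied a gene of the gate. Of 20 PPAR targets and lipid handling genes tested, 6 were higher and 0 lower (median 0.19), or 5 of 19 without Angptl4 (median 0.19). The higher ones were Pdk4, Angptl4, Acot2 (105 to 157 against 20.8 to 34.3 CPM), Slc25a20, the carnitine carrier (91.0 to 108 against 40.4 to 52.7 CPM), Plin2, a lipid droplet protein (152 to 277 against 91.6 to 111 CPM), and Cyp4a31. Ehhadh, Cd36 and Cyp4a10, other PPAR targets, had medians of -0.03, -0.07 and 0.19. Of 21 fatty acid oxidation genes 1, Slc25a20 again, was higher (median -0.22). Of 15 NRF2 and oxidative stress genes 4 were higher and 1 was lower (median -0.12), or 3 of 14 and 1 without Osgin1 (median -0.14). Higher were Osgin1, Txnip, Sqstm1 (405 to 452 against 159 to 186 CPM) and Hmox1 (69.1 to 101 against 25.6 to 28.7 CPM), while Nqo1, a standard NRF2 target, was at 15.1 to 22.9 against 19.0 to 25.6 CPM.

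Several classical markers of tubular injury, but not all, were low in the summed stress gate cells. Of 9 tubular injury genes tested, 2 were higher and 4 were lower (median -0.54). Krt8, an epithelial keratin, was higher at 365, 228, 318 and 224 CPM against 62.7 to 70.0 CPM, and Itgb6 was the other higher gene. Spp1, the most abundant member of the list in stress gate cells, was abundant on both sides of the threshold. It stood at 1622 to 5137 CPM over the score classes inside the gate and at 2104 to 5020 CPM over those below it. Havcr1, which encodes the injury marker KIM-1, was at 7.60 to 12.5 CPM in stress gate cells and 6.31 to 9.70 in the others, Lcn2 at 1.42 to 3.75 against 2.12 to 9.40, Vcam1 at 3.97 to 11.1 against 2.75 to 8.91, and Krt20 at no more than 1.01 CPM. Within the gate Havcr1 was highest in the cells with 0.5% or more of gate gene UMIs, at 22.5, 16.5, 32.8 and 24.4 CPM (vehicle, panobinostat, givinostat, ruxolitinib), against 6.13, 6.39, 2.44 and 9.58 CPM between 0.2% and 0.5%. It was also at 22.0 CPM just below the threshold with vehicle. Vim, Tmsb10, S100a6 and Clu were the 4 lower genes. The first 3 are also expressed in leukocytes and the vasculature, whose summed markers were higher in the other proximal tubule cells.

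**Figure D3:**
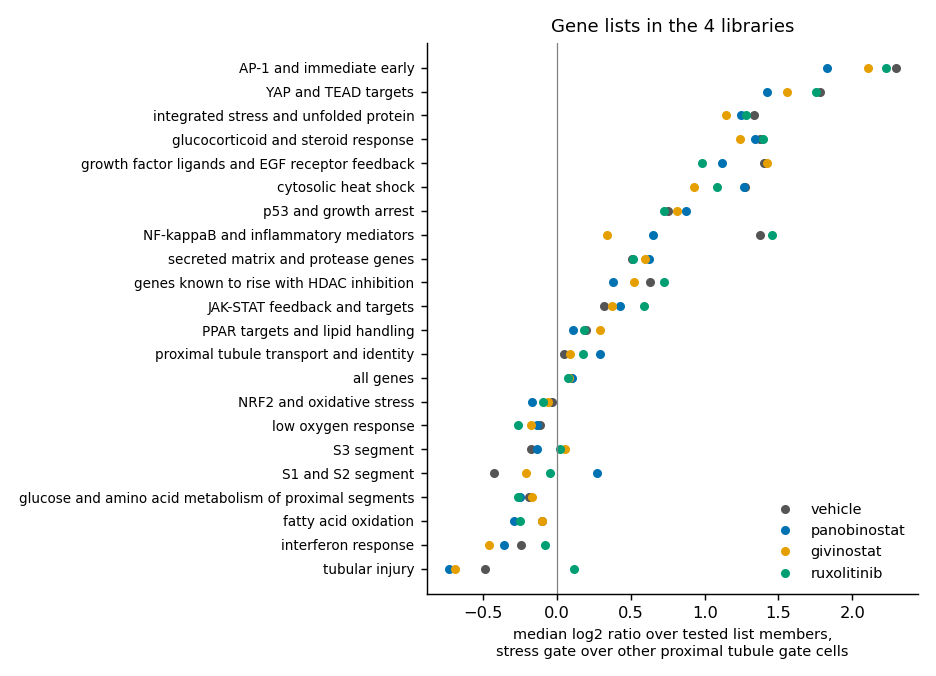
Each point is the median log2 ratio of stress gate over other proximal tubule cells across the tested members of a gene list, for 1 library. Immediate early genes, YAP and TEAD targets, integrated stress and glucocorticoid genes lie to the right of the point for all genes (median 0.08) in each library, and tubular injury genes lie to the left except with ruxolitinib; TMM and DESeq2 scaling shift all points to the left by 0.06 to 0.16, which changes the sign of medians close to 0.

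Dividing the proximal tubule cells by the summed share of the 4 gate genes showed that the genes were not all raised at 1 point. Jun was already high just below the threshold. In cells with 0.05% to 0.1% it stood at 1817, 2237, 2122 and 2144 CPM (vehicle, panobinostat, givinostat, ruxolitinib), against 350, 569, 371 and 469 CPM in cells between 0 and 0.05%. In the highest class, at 0.5% or more, Jun reached 6036, 5932, 5848 and 5589 CPM. Atf3 was raised further up the scale, and stood at 56.8 to 109 CPM between 0.05% and 0.1%, at 97.7 to 205 CPM between 0.1% and 0.2%, and at 1297, 844, 816 and 1210 CPM at 0.5% or more. Krt8 followed the same course, from 78.0 to 95.2 CPM just below the threshold to 702, 389, 571 and 484 CPM in the highest class. Kap was highest where no gate gene was found, at 55741 to 75149 CPM, and Slc5a2, the glucose carrier of the early proximal tubule, went from 282, 281, 211 and 224 CPM just below the threshold to 80.7, 135, 45.4 and 58.0 CPM in the highest class. Lrp2 stayed between 1217 and 1860 CPM from 0.05% upward. Median UMI totals also differed by class, from 5508 to 8919 in cells without a gate gene to 12846 to 22756 in the highest class, and mitochondrial shares from 22.0% to 24.0% down to 11.1% to 12.8%; their part was not tested.

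**Figure D4:**
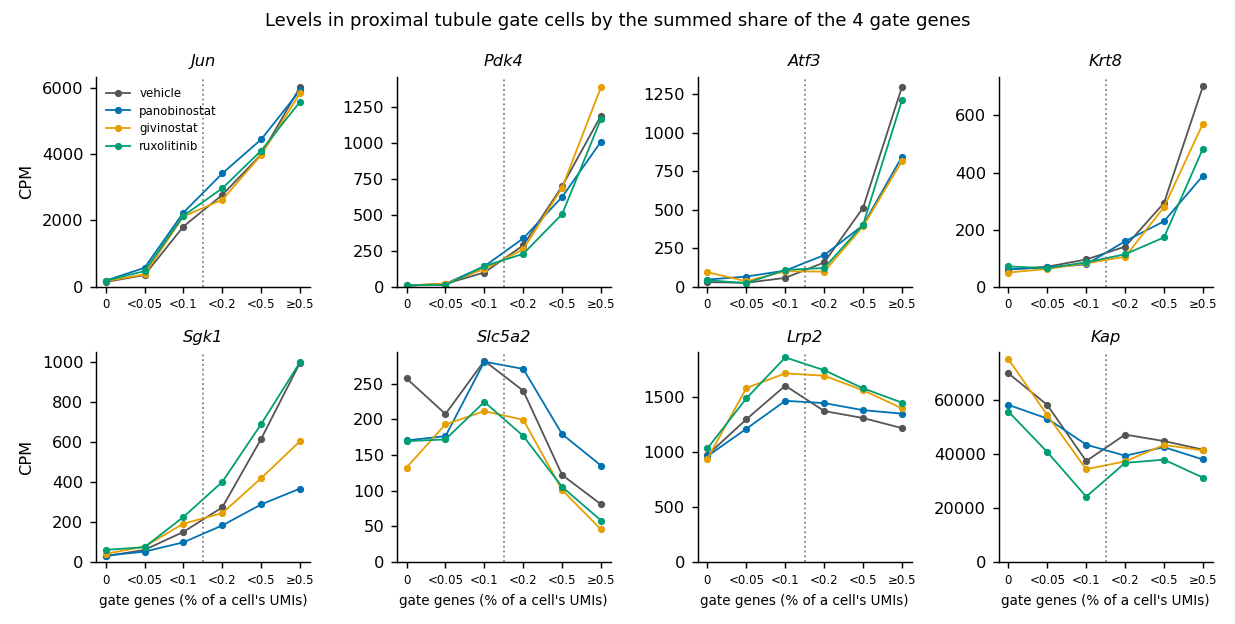
Levels in CPM of 8 genes in proximal tubule gate cells grouped by the percentage of a cell's UMIs that came from the 4 gate genes; the dotted line marks the threshold of 0.1%. Jun is raised to the left of the line, Atf3 and Krt8 mainly to its right, Slc5a2 is lowest in the 2 highest classes of the vehicle, givinostat and ruxolitinib libraries, and Sgk1 is lowest with panobinostat in every class to the right of the line.

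Under panobinostat, 17 of 1465 genes with 100 CPM or more were at least 1.5-fold higher in the stress gate cells than with vehicle (1.16%) and 34 were lower (2.32%). The clearest difference was in Sgk1, at 636, 264, 426 and 678 CPM in the 4 libraries, which gave 0.415 of the vehicle level with panobinostat (0.394 to 0.436). Panobinostat lay below every other library, and below vehicle in each of the 3 score classes inside the gate, at 182, 287 and 366 CPM against 273, 615 and 996 CPM. In the other proximal tubule cells the ratio for Sgk1 was 0.777 (0.6999 to 0.863). Hbegf was at 299 CPM with vehicle and 160 with panobinostat, a ratio of 0.537 (0.502 to 0.574), Id1, a BMP target, at 122 and 66.4 CPM (0.546, 0.492 to 0.606) and Ier2 at 218 and 124 CPM (0.569, 0.527 to 0.614). Angptl4 was lower in both kinds of cell, with ratios of 0.606 (0.577 to 0.636) and 0.518 (0.466 to 0.577). It is a gene of the rule, so both ratios are shaped by the selection and are a description only.

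Among the genes that were higher with panobinostat, Lpl, lipoprotein lipase, the enzyme that Angptl4 inhibits, was at 135 CPM with vehicle and 301 with panobinostat (2.23, 2.08 to 2.39), and its ratio was 2.28 (2.16 to 2.41) in the other proximal tubule cells. Lpl was at 168 CPM with givinostat and 175 with ruxolitinib. G6pc, the last enzyme of gluconeogenesis, was at 267, 511, 459 and 445 CPM, so all 3 drug libraries lay above vehicle. Cgnl1, a junction protein, had a log2 ratio of 0.86, Slc6a19, the neutral amino acid carrier of the early proximal tubule, 0.74, and Dnase1 0.73. Of 11 S1 and S2 segment genes 4 were higher with panobinostat and 0 were lower (median 0.43), beside 0.729% higher, 1.22% lower and a median of 0.01 over all genes with 20 CPM or more. H2-Eb1 also passed the fold (0.74), but turned to -0.46 without cells that carried markers of other types and to -0.50 without the highest doublet scores. Haemoglobin genes accounted for 4 of the 17 higher genes.

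The immediate early list was lower with panobinostat within the stress gate. Of 26 members tested 0 were higher by 1.5-fold and 7 were lower, with a median log2 ratio of -0.38; over all 5899 genes with 20 CPM or more 0.729% were higher, 1.22% were lower and the median was 0.01. The list median lay between -0.30 and -0.54 under the 21 other settings tried. In the other proximal tubule cells the list median was 0.17, with 1 of 19 higher and 0 lower, beside 0.586% and 0.794% of all genes there. Jun and Fosb, at 4318 and 1455 CPM, were level with the 4249 and 1455 CPM of vehicle, while Btg2 was at 399 against 621 CPM, Zfp36 at 234 against 382 and Atf3 at 397 against 636 CPM. Krt8 was at 228 against 365 CPM. Spp1 had a log2 ratio of -0.68, and of -0.41 in the other proximal tubule cells. These values stand beside the lower gate score of the panobinostat cells (median 0.259% against 0.311%), whose part was measured only by class: Atf3 was at 205, 399 and 844 CPM in the 3 classes from the threshold upward, against 157, 512 and 1297 CPM with vehicle. Of 13 glucocorticoid and steroid response genes 4 were lower (median -0.42), among them Sgk1 and Angptl4, the latter a gene of the rule.

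Under givinostat, 15 of 1502 genes were at least 1.5-fold higher in stress gate cells (0.999%) and 19 were lower (1.26%). With TMM scaling or DESeq2 size factors the split was 14 against 29. Cyp4a14, a PPAR-alpha target that hydroxylates fatty acids, was at 143 CPM with vehicle, 84.5 with panobinostat, 44.7 with givinostat and 78.2 with ruxolitinib, so that every drug library lay below vehicle and givinostat lowest (ratio 0.313, 0.275 to 0.355). Ucp2, a mitochondrial carrier, was at 126, 78.8, 44.1 and 40.4 CPM, with a givinostat ratio of 0.350 (0.307 to 0.398). Dbp, a circadian output factor, was at 129 CPM with vehicle and 57.0 with givinostat (0.444, 0.394 to 0.498), while ruxolitinib, at 123 CPM, was close to vehicle. Tmem37 had a log2 ratio of -0.95. Among the higher genes, Itgb6 was at 80.8 CPM with vehicle and 140 with givinostat (1.74, 1.58 to 1.91) and Ndrg1, a gene induced by hypoxia, at 1076 and 1827 CPM (1.70, 1.65 to 1.74). G6pc (0.77), Snx29 (0.72), Id3 (0.72) and Col4a3 (0.72) were next, leaving out the 4 haemoglobin genes among the 15 higher genes and AC160336.1, which the naming rule did not take. Of 11 low oxygen response genes tested 1, Ndrg1, was higher and 2 were lower (median -0.18). Over all genes with 20 CPM or more 0.979% passed the fold in each direction and the median was 0.05.

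The gate genes were closer to vehicle with givinostat: Cyr61, Osgin1, Adamts1 and Angptl4 had ratios of 1.06, 1.12, 0.904 and 0.867, and Pdk4 1.06. Of 26 immediate early genes 0 were higher and 0 were lower by 1.5-fold (median -0.11, beside 0.05 over all genes and backgrounds of 0.979% in each direction). The list median with givinostat was -0.33 among cells of 1 to 2 times the library median and -0.41 among cells of 10000 to 20000 UMIs. Of 21 PPAR targets and lipid handling genes 6 were lower and 0 higher (median -0.20), and Plin2 was at 277 CPM with vehicle and 152 with givinostat (0.548, 0.509 to 0.589). The doses of the deacetylase inhibitors differed, so no ratio was taken between givinostat and panobinostat. Side by side, Sgk1 was at 426 and 264 CPM, Lpl at 168 and 301 CPM, Hbegf at 234 and 160 CPM and Cyp4a14 at 44.7 and 84.5 CPM.

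Under ruxolitinib, 20 of 1518 genes were at least 1.5-fold higher in stress gate cells (1.32%) and 13 were lower (0.856%), and the split was 16 against 16 with DESeq2 size factors. Bcl6, a transcriptional repressor that STAT5 controls, was at 153, 126, 134 and 46.6 CPM, so ruxolitinib alone lay far below vehicle (0.305, 0.270 to 0.344). The other JAK-STAT genes did not follow it. Of 11 JAK-STAT feedback and target genes tested 3 were higher and 1, Bcl6, was lower (median 0.33). Over all genes with 20 CPM or more 1.12% were higher, 0.551% were lower and the median was 0.04. The ratio for Bcl6 was 0.326 (0.283 to 0.374) in the other proximal tubule cells. Apoe, the lipid carrier apolipoprotein E, was at 75.6, 37.6, 50.5 and 292 CPM (3.86, 3.54 to 4.21), and Id3 at 71.99, 38.8, 122 and 203 CPM (2.82, 2.57 to 3.09). Apoe was found in 53.4% of the ruxolitinib stress gate cells and its 5 richest cells held 21.2% of its UMIs. Ucp2 (-1.53), Mogat1, an acylglycerol transferase (-0.93), and Cyp4a14 (-0.83) were again lower. Angptl4, whose ratio is shaped by the rule, stood at 0.587 of vehicle (0.557 to 0.618).

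A few chaperones were higher with ruxolitinib. Hspa1b, an inducible cytosolic chaperone, was at 47.7, 70.9, 52.4 and 130 CPM (2.73, 2.44 to 3.06), and Hspa1a at 93.3, 114, 88.6 and 194 CPM (2.08, 1.91 to 2.27). The log2 ratio of Hspa1a went from 1.02 to 0.54, below 1.5-fold, at a proximal tubule threshold of 3%. Manf, an endoplasmic reticulum stress protein, was at 79.0 CPM with vehicle and 169 with ruxolitinib (2.14, 1.95 to 2.35), and Hspa5 at 825 and 1535 CPM (1.86, 1.81 to 1.92). Of 12 cytosolic heat shock genes 2 were higher and 0 lower (median 0.11), and of 12 integrated stress and unfolded protein genes 2 were higher and 0 lower (median 0.11), beside 0.04 over all genes with backgrounds of 1.12% higher and 0.551% lower. The chaperone genes were also higher in the other proximal tubule cells, with ratios of 2.80 for Hspa1b, 2.68 for Hspa1a, 1.82 for Manf and 1.91 for Hspa5. The immediate early list had a median of -0.10, with 0 of 26 higher and 2 lower. Cxcl1 was at 203 CPM against 140 with vehicle (1.45, 1.34 to 1.56), and at 18.9 against 6.33 CPM in the other cells (2.99, 2.29 to 3.94).

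Klk1, a kallikrein of the distal tubule, and S100g, a calcium-binding protein of the distal tubule, were among the lowest ratios of every drug, but a few cells held most of their UMIs in the vehicle and panobinostat libraries. Klk1 was at 196, 93.9, 47.5 and 32.9 CPM in stress gate cells, and the 5 richest cells held 79.8% of its UMIs with vehicle and 67.5% with panobinostat, although 46.7% and 30.5% of the cells had a UMI. S100g was at 175, 87.9, 50.7 and 58.8 CPM, with 65.9% of its UMIs in 5 vehicle cells and 69.6% in 5 panobinostat cells. Without the 5% highest doublet scores the panobinostat log2 ratio turned from -1.03 to 0.32 for Klk1 and from -0.96 to 0.55 for S100g. With givinostat the ratio for Klk1 (-1.94) turned to 0.21 without cells carrying markers of other types, and that for S100g (-1.69) turned to 0.13 among cells of 10000 to 20000 UMIs. Their direction with both drugs depended on the choice of cells. With ruxolitinib the log2 ratios of -2.41 and -1.50 turned under none of the settings tried.

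Part of the differences between drug and vehicle was shared with the other proximal tubule cells. Among genes with 100 CPM or more in both kinds of cell, 8 of 13 genes that were higher with panobinostat in the stress gate were also higher in the other cells, 10 of 11 with givinostat and 9 of 12 with ruxolitinib. Seen from the other cells these were 8 of 13, 10 of 21 and 9 of 19, where 0.975%, 1.90% and 1.81% of all genes with 100 CPM or more were higher. Of the lower genes 9 of 19, 12 of 18 and 6 of 9 were shared, which was 9 of 14, 12 of 14 and 6 of 12 seen from the other cells, where 1.13%, 1.24% and 1.01% were lower. None of these genes passed the fold in opposite directions, but the minimum level left out Atf3, which was under 100 CPM in the other cells and with panobinostat had ratios of 0.623 (0.597 to 0.651) in stress gate cells and 2.04 (1.802 to 2.31) in the others. Both kinds of cell come from the same libraries, so the shared genes are no independent support.

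**Figure D5:**
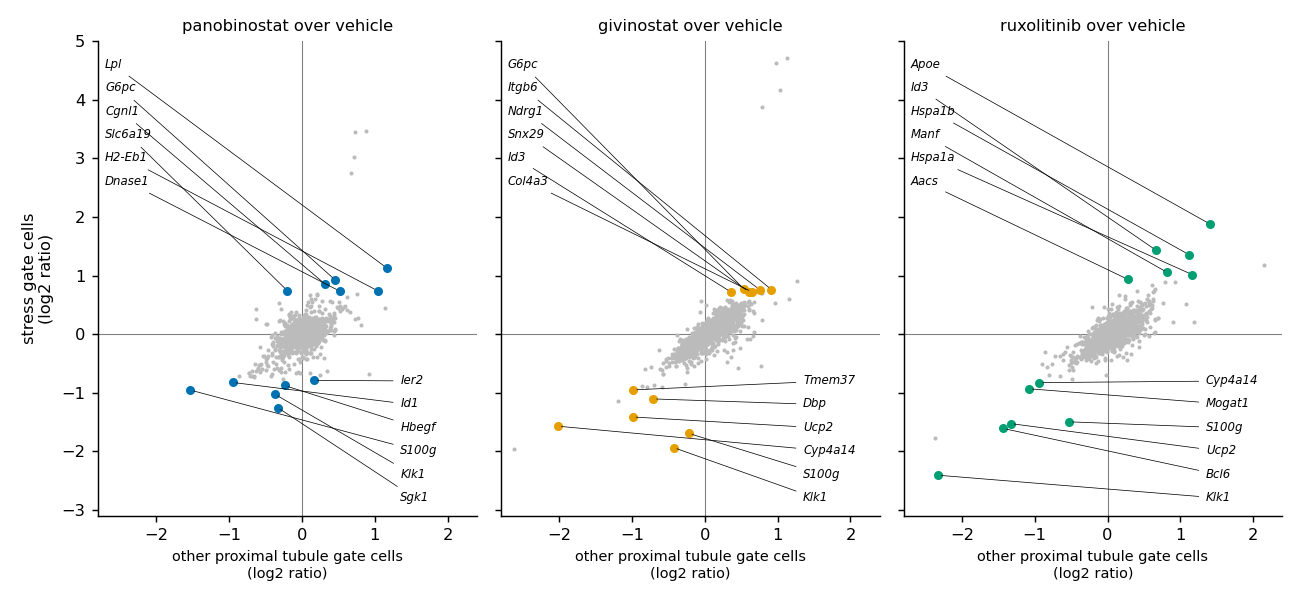
Log2 ratios to vehicle (5 CPM added) in stress gate cells against those in other proximal tubule cells for genes with 100 CPM or more in stress gate cells; coloured points are the 6 highest and 6 lowest genes of each drug named by rule, and the 4 unlabelled points above 2.7 with panobinostat and with givinostat are haemoglobin genes. The coloured genes have the same sign in both kinds of cell except Slc6a19 and Ier2 with panobinostat, and the signs of H2-Eb1, Klk1 and S100g with panobinostat and of Klk1 and S100g with givinostat change under other cell selections.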

How the data were processed

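Single cells from total kidney were sequenced with a 10x 3' kit in 4 libraries. The submitters' processing notes name Cell Ranger 3.0.1 and the build mm10. The deposited matrix holds raw UMI counts for 16706 genes, and the library of each cell was read from the ending of its deposited name. Cells with 200 or more genes were kept. Counts were summed over the cells of a kind in a library and scaled to CPM (Python 3.11.15, numpy 2.4.6, scipy 1.17.1, pandas 2.3.3, figures with matplotlib 3.10.9). Library totals were 37255448 to 45086300 UMIs, and stress gate totals 6666950 to 9306865. A level carries an exact Poisson interval, a ratio an exact conditional binomial one and a share an exact Clopper-Pearson one, all at 95% and for counting error only. With 1 library per group no test was run.

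Log2 ratios used 5 CPM added to each level. Genes needed 100 CPM, or 20 CPM for list members, in 1 of the sums compared, and counted as past the fold at 1.5-fold for a drug and 2-fold in all 4 libraries for the gate. Genes named by rule were the gate and label genes, the 15 highest and 10 lowest gate ratios, the 6 highest and 6 lowest ratios of each drug, the 3 highest and 3 lowest differences between kinds of cell for each drug, and the most abundant 2 to 4 members of each list, leaving out markers of other cells and genes that were ribosomal, mitochondrial, sex-linked, predicted or of haemoglobin or immunoglobulin. Other genes, such as Lyz2, Nr4a1, Havcr1, Lcn2, Krt20, Nqo1, Fkbp5, Cdkn1a, Ctgf, Cxcl2, Il1b, Zfp36 and the haemoglobin genes, were named after their values were seen. The members and all gene lists were chosen with earlier results of these data known. Alternatives were other thresholds, sums without 1 gate gene, thinning, a stricter cell filter, leaving out cells with markers of other types or high doublet scores (Scrublet in scanpy 1.11.5), edgeR 4.0.16 TMM and DESeq2 1.42.0 scaling (R 4.3.3), other minimums and pseudocounts. The depth windows and scaling by UMIs outside mitochondrial genes were added after the data were seen. The ratios were tested on simulated counts. Gene symbols were matched to RefSeq promoters of GRCm38.p6, with Cyr61 found as Ccn1.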

Additional observations from a re-analysis of the deposited data

Results flagged for a closer look

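Cells at or above the stress threshold also occurred outside the proximal tubule gate: 129 cells with vehicle, 149 with panobinostat, 113 with givinostat and 169 with ruxolitinib, which was 5.87%, 7.48%, 4.91% and 6.65% of the cells outside it. Most marker UMIs of 50, 56, 49 and 69 of them came from the loop of Henle list and of 45, 58, 37 and 53 from the leukocyte list. Cyr61 gave 62.2% to 69.6% of their gate gene UMIs and Angptl4 2.85% to 5.21%.

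Only the genes named by rule for the highest and lowest differences between kinds of cell with each drug were looked at here. Among these, 9 gene and drug pairs had ratios to vehicle on opposite sides of 1 in stress gate and other proximal tubule cells. Neither counting interval of these pairs reached 1. A selection of the largest differences favours ratios on opposite sides of 1, so the count of 9 is a description only and nothing is read from it. Zfp36 and Gadd45g with panobinostat, outside that selection, also had log2 ratios of opposite sign, and the share over all genes was not counted. The difference between the kinds of cell was not tested, since each group had 1 library. With panobinostat the log2 ratio in stress gate cells minus that in the other cells was 1.06 for Slc5a12, a lactate carrier, 0.94 for Slc6a19 and 0.88 for Cpeb3. It was -1.59 for Atf3, which had ratios of 0.623 in stress gate cells and 2.04 in the other cells. It was -0.98 for Btg2 and -0.95 for Ier2. With givinostat it was -1.31 for Atf3, with ratios of 0.687 and 1.83. With ruxolitinib it was 0.68 for Tmsb4x and -0.71 for Brd2.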

How the results depend on the processing

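No paired analysis was possible because each group had 1 library, and for the same reason no replicate could be left out. The share ratios and counts of genes were set beside their values under another setting in 123 comparisons. The limit was the counting interval of the main value for a share ratio, and a 1.5-fold difference for a count of genes. Within these limits were 105 comparisons, while 17 moved and 1 reversed. The share ratio for panobinostat was 0.674 at a threshold of 0.2%, 0.645 when Cyr61 was left out of the sum and 1.00 among cells of 10000 to 20000 UMIs, where it was 0.526 for givinostat and 0.744 for ruxolitinib. The 103 genes past 2-fold in all libraries became 171 at a proximal tubule threshold of 3% and 189 with no minimum level. The counts past 1.5-fold for panobinostat, givinostat and ruxolitinib (51, 34 and 33) became 194, 265 and 208 with no minimum, and 86, 57 and 50 among cells of 1 to 2 times the library median. With a minimum of 50 CPM givinostat had 60 and ruxolitinib 54, among cells of 10000 to 20000 UMIs they had 189 and 76, and givinostat had 63 after thinning. Fewer cells and lower levels enter several of these settings, and the cause was not tested.

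The log2 ratio of Klk1 with panobinostat turned to 0.036 under the stricter cell filter, 0.10 without cells with other markers, 0.32 without high doublet scores, 0.31 among cells of 10000 to 20000 UMIs and 0.48 among cells of 1 to 2 times the median. That of S100g turned to 0.55, 0.41 and 0.72 under the last 3 of these. With givinostat Klk1 turned to 0.21 without cells with other markers and to 0.25 among cells of 10000 to 20000 UMIs, where S100g turned to 0.13. H2-Eb1 with panobinostat turned to -0.64 at the 0.2% threshold, -0.26 without Cyr61, -0.46 without cells with other markers and -0.50 without high doublet scores, and its ratio of stress gate over other cells turned to 0.12 without cells with other markers. The cause was not tested. Of the values of single genes and lists, 1163 stayed within the stated limits, 165 moved in size only and 16 reversed. Scaling by non-mitochondrial UMIs gave splits of 15 higher against 27 lower for givinostat and 27 against 13 for ruxolitinib, and TMM gave 16 against 15 for ruxolitinib. Differences inside the counting intervals were not detectable at this depth.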
